A study of Mus musculus with 2 samples.

Results

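The miR-181 family was followed in small RNA libraries made from jejunal tunica muscularis, the muscle wall of the small intestine, of *Dnmt1*-WT and *Dnmt1*-KO mice at postnatal day 15. Its members were taken by name, as every mature product of miR-181a, miR-181b, miR-181c and miR-181d. This gave 9 of the 1080 mature entries of the deposited table, 4 from the 5p arm and 5 from the 3p arm, each above 0 in both libraries. *Dnmt1*-KO mice, on a C57BL/6 background, lack the maintenance DNA methyltransferase *Dnmt1* in smooth muscle, where a *Cre*-eGFP transgene driven by the *Myh11* promoter deletes floxed alleles. *Dnmt1*-WT mice carry the same transgene with *Dnmt1* intact. The strain field reads Dnmt1lox/lox for both samples, and a description line gives the mutant genotype for both, so genotypes were taken from the genotype field and the titles. Small RNA does not measure the *Dnmt1* transcript, so the deletion was not checked here.

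Each genotype is represented by 1 library, so the spread between animals is unknown and no test between genotypes was made. Males and females were used for each genotype, and pooling of their RNA is not stated. Deposited values are reads multiplied by a factor per library, close to 1, with a total of 5741906 for *Dnmt1*-WT and of 4754677 for *Dnmt1*-KO. Each interval below is a 95% interval for counting error only and leaves out the spread between animals. It takes every read as independent. The reads carry no molecular identifiers, so copies of a molecule cannot be recognised, and such copies would make the intervals too narrow. Statements below about counting error hold under that assumption. Ratios are *Dnmt1*-KO over *Dnmt1*-WT on the deposited scale unless another scale is named.

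A miRNA is cut from a hairpin whose arms give a 5p and a 3p product. Usually one of them, the guide, is kept in an Argonaute protein, and the other, the passenger, is degraded. The guide pairs with messenger RNAs mainly through its seed, so products that share a seed are expected to share many targets. The miR-181 family is conserved among vertebrates and is best known from lymphocyte development, where miR-181a sets the sensitivity of the T cell receptor, and it is also made in muscle, brain and vessels.

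The mature sequences, from RefSeq on GRCm38.p6, show why the 4 guides can be added up as a family and how they can still be told apart. The seed, bases 2 to 8, is in capitals.
miR-181a-5p: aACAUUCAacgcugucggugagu
miR-181b-5p: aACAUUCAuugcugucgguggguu
miR-181c-5p: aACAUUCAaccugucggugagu
miR-181d-5p: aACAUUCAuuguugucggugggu
The seed was the same in all 4, and no other mature name of the 1679 in the sequence table had it. Counting from 1 at the 5′ end, miR-181a-5p and miR-181b-5p differ by A9U, C10U and A21G, with 1 more base at the 3′ end of miR-181b-5p. miR-181c-5p equals miR-181a-5p without its base at position 11. miR-181b-5p and miR-181d-5p differ only by C12U and by 1 base at the 3′ end. The first difference between any of these products lies between positions 9 and 12, so a read cut off before them cannot be assigned.

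The family comes from 6 hairpins in 3 clusters, located here on GRCm38 with the GENCODE M21 annotation. Mir181a-1 (chr1:137966455-137966541) and Mir181b-1 (chr1:137966639-137966718) lie 97 bases apart on the plus strand. Both overlap an exon of the long noncoding RNA A430106G13Rik and an intron of the noncoding transcript Gm4258, and both are antisense to an intron of Gm26936. Mir181a-2 (chr2:38852735-38852810) and Mir181b-2 (chr2:38853830-38853918) lie 1019 bases apart on the plus strand, antisense to an intron of the nuclear receptor gene *Nr6a1*. Mir181b-2 is also antisense to an exon of Gm44144, an unclassified transcript. Mir181c (chr8:84178873-84178961) and Mir181d (chr8:84178716-84178787) lie 85 bases apart on the minus strand, in an intron of *Nanos3*, a gene known for its role in germ cells.

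The a-1 and a-2 hairpins are shown because they carry the same guide but different passengers. The 2 mature products are in capitals in each.
Mir181a-1: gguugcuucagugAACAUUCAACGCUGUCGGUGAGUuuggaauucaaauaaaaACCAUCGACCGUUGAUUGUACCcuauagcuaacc
Mir181a-2: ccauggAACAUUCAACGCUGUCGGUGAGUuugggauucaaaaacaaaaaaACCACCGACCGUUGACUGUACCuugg
The values of miR-181a-5p and miR-181b-5p therefore each join 2 loci, and only the 3p products separate them. miR-181a-1-3p and miR-181a-2-3p differ by U5C, inside the seed, and by U16C. The 3p seeds are less shared than the 5p seed, as the capitals show.
miR-181a-1-3p: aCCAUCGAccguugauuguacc
miR-181a-2-3p: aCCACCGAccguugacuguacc
miR-181c-3p: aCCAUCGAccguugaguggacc
miR-181b-1-3p: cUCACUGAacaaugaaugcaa
miR-181d-3p: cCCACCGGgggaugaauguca
miR-181a-1-3p and miR-181c-3p have the same 3p seed and differ by U16G and U19G. A further product, miR-181b-2-3p, has a RefSeq sequence but no entry in the table used here.

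The first question was how much of each product was present. miR-181a-5p (mmu-miR-181a-5p in the table) was the dominant member, with values of 203962 in *Dnmt1*-WT and 143854 in *Dnmt1*-KO and ranks of 6 and 8 among the mature entries. The next 2 changed places between the libraries. miR-181b-5p (mmu-miR-181b-5p) stood at 28135 in *Dnmt1*-WT and 12876 in *Dnmt1*-KO, and miR-181c-5p (mmu-miR-181c-5p) at 23511 and 25485. miR-181d-5p (mmu-miR-181d-5p) was the least abundant guide, at 9880 and 5851.

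The 3p products were far below their guides. miR-181a-1-3p stood at 582.2 in *Dnmt1*-WT and 587.3 in *Dnmt1*-KO, and miR-181a-2-3p at 657.4 and 444.7. miR-181c-3p stood at 309.9 and 363.0. The passengers of miR-181b and miR-181d had the lowest values of the family. miR-181b-1-3p was listed at 19.1 and 14.0, and miR-181d-3p at 8.0 and 1.0, values that correspond to 19 and 14 reads and to 8 and 1 reads. Read numbers of different products also depend on how well each sequence was ligated and amplified, which was not measured.

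**Figure D1:**
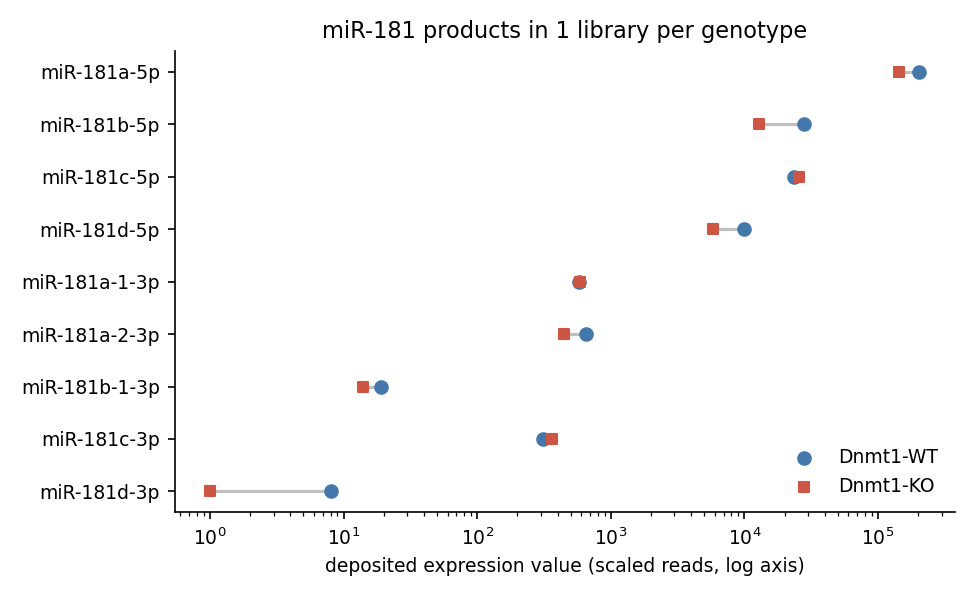
Deposited expression value of each of the 9 miR-181 products (log axis, scaled reads) in the *Dnmt1*-WT library (circles) and the *Dnmt1*-KO library (squares), 1 library per genotype and no error bars. miR-181a-5p stands above all other products in both libraries, and only miR-181c-5p, miR-181a-1-3p and miR-181c-3p have a higher value in *Dnmt1*-KO.

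As a family, the guides made up a smaller part of the *Dnmt1*-KO library. The sum of the 4 guides was 265487 in *Dnmt1*-WT against 188066 in *Dnmt1*-KO, a ratio of 0.708 (0.704 to 0.713). As a share of all deposited values, they held 4.62% (4.61 to 4.64%) of *Dnmt1*-WT and 3.96% (3.94 to 3.97%) of *Dnmt1*-KO. A factor per library leaves this share as it is, but the share also depends on the other entries, such as miR-143-3p. Setting library totals equal compares these same shares and gave a ratio of the sum of 0.855. The summed guides were thus lower in the *Dnmt1*-KO library on the deposited scale and as a share, by an amount that the scale decides.

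The guides differed from each other. The lowest ratio was that of miR-181b-5p, at 0.458 (0.448 to 0.467), a log2 ratio of -1.13. miR-181d-5p followed at 0.592 (0.573 to 0.612), and miR-181a-5p at 0.705 (0.701 to 0.710). miR-181c-5p was the exception at 1.08 (1.06 to 1.10), a value above that of *Dnmt1*-WT. No 2 of these intervals overlap, so the order of the 4 guides exceeds counting error. Whether it exceeds the spread between animals cannot be known from 1 library each.

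Among the 3p products, miR-181a-2-3p had a ratio of 0.676 (0.598 to 0.764). For miR-181a-1-3p the ratio was 1.01 (0.897 to 1.13), and its interval includes 1. miR-181c-3p stood at 1.17 (1.004 to 1.37). The ratio of miR-181b-1-3p, 0.733 with an interval from 0.340 to 1.54, gave no direction at this depth. miR-181d-3p had a ratio of 0.125 from 8 reads against 1, with an interval from 0.00280 to 0.927.

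**Figure D2:**
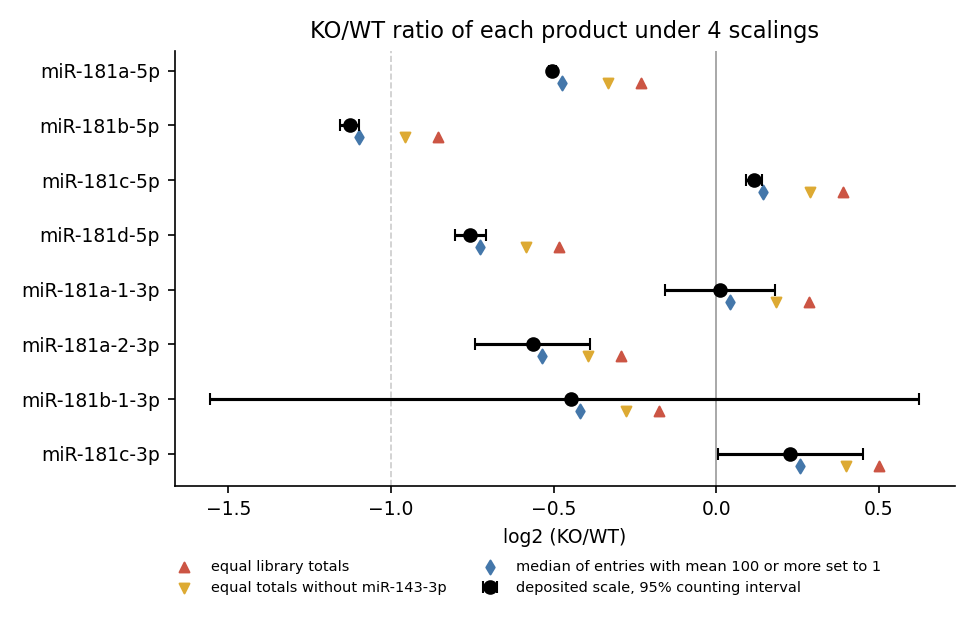
KO/WT ratio on a log2 axis for the 8 miR-181 products with a mean of at least 10. Black circles give the deposited scale with the 95% counting interval, and the coloured symbols below each circle give the 3 other scalings. miR-181b-5p lies lowest at -1.13, left of the dashed line at a 2-fold lower value, and miR-181c-5p lies right of 0 under all 4 scalings.

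Scaling moved the size of these ratios but not their side. With equal totals, all log2 ratios shift up by 0.27, and miR-181a-5p then stood at 0.852, miR-181b-5p at 0.553, miR-181c-5p at 1.31 and miR-181d-5p at 0.715. Under each of the 4 scalings, miR-181a-5p, miR-181b-5p and miR-181d-5p stayed below 1, and miR-181c-5p stayed above it.

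Set against the whole table, 8 of the 9 products had a mean of both libraries of at least 10. Of these, 1 was at least 2-fold lower in *Dnmt1*-KO, miR-181b-5p, against 8.99% of the 534 mature entries past the same minimum. None was at least 2-fold higher, against 11.4% of entries. A share of 1 in 8 is near the background, and with equal totals miR-181b-5p no longer passed 2-fold, so that none of the 8 was called, against 4.31% of entries lower and 19.7% higher. With no minimum, 2 of 9 products were at least 2-fold lower, miR-181b-5p and miR-181d-3p, against 22% of mature entries, and none higher, against 26.1%. The call of miR-181d-3p rests on 8 reads against 1 and was lost with a pseudocount of 10, at a ratio of 0.611. At a minimum mean of 100, 1 of 7 was lower, against 8.31%, and none higher, against 6.39%. At 1000, 1 of the 4 guides was lower, against 7.35%, and none higher, against 4.41%. The 8 products had a median log2 ratio of -0.48, with 5 lower and 3 higher. Over the 522 mature entries past that minimum that neither library lists at 0, the median was 0.04, with 252 lower and 267 higher.

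The guides can be set beside entries of like abundance. Of the 136 mature entries with a mean of at least 1000, 80 had a lower and 56 a higher value in *Dnmt1*-KO, with a median log2 ratio of -0.13 and quartiles of -0.51 and 0.33. The 4 guides had a median of -0.63. Only 6 of the 136 entries had a lower ratio than miR-181b-5p, whereas 18 lay below miR-181d-5p and 34 below miR-181a-5p. miR-181c-5p lay in the upper part of the list, with 85 entries below it. The nearest entries to miR-181a-5p in *Dnmt1*-WT were miR-145a-5p above it, a smooth muscle miRNA with a ratio of 0.598, and miR-27b-3p below it, with a ratio of 0.823.

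**Figure D3:**
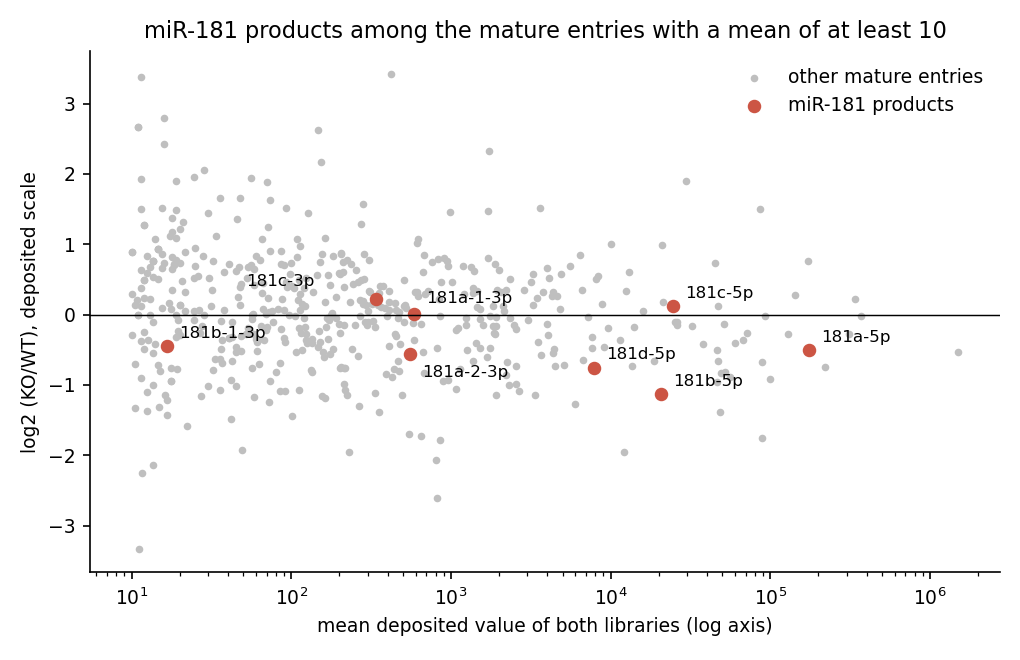
log2 KO/WT ratio on the deposited scale (vertical axis) against the mean value of both libraries (log axis) for mature entries past a minimum mean of 10 that neither library lists at 0. Each point is 1 entry and the miR-181 products are in red. The 4 guides, at the right, spread from -1.13 to 0.12, within the cloud of the other entries.

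The make-up of the family was compared next, since a share within a library needs no scaling between libraries. miR-181a-5p held 76.8% (76.7 to 77.0%) of the guides in *Dnmt1*-WT and 76.5% (76.3 to 76.7%) in *Dnmt1*-KO. Its ratio to the other 3 guides changed by 0.981 (0.968 to 0.995), little beside the changes among the minor guides. miR-181b-5p went from 10.6% (10.5 to 10.7%) to 6.85% (6.73 to 6.96%), while miR-181c-5p went from 8.86% (8.75 to 8.96%) to 13.6% (13.4 to 13.7%). miR-181d-5p held 3.72% (3.65 to 3.79%) and 3.11% (3.03 to 3.19%). Leaving miR-181a-5p aside, miR-181c-5p made up 38.2% of the other 3 guides in *Dnmt1*-WT and 57.6% in *Dnmt1*-KO, and miR-181b-5p 45.7% and 29.1%.

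**Figure D4:**
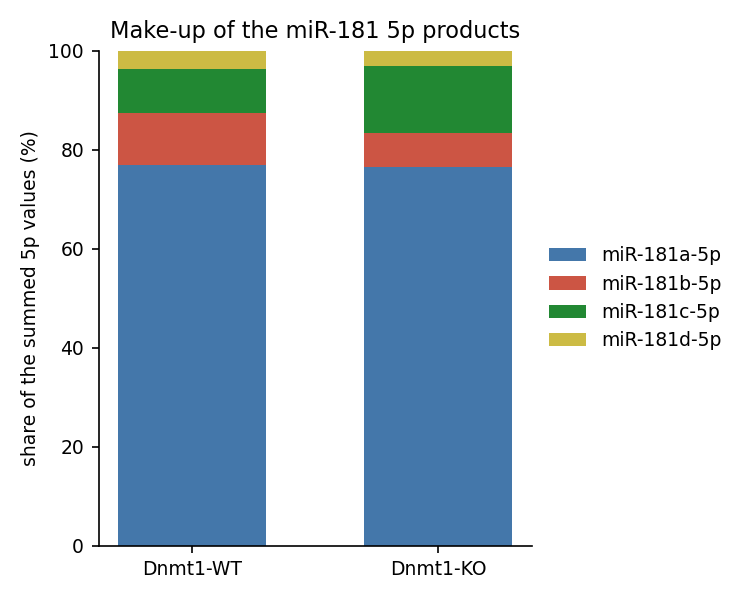
Share of each guide in the summed miR-181 5p values (percent, stacked from 0 to 100) in the *Dnmt1*-WT and *Dnmt1*-KO libraries. The miR-181a-5p block is 76.8% and 76.5% high, and the miR-181c-5p block widens from 8.86% to 13.6% as that of miR-181b-5p narrows from 10.6% to 6.85%.

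The arms of miR-181a were compared to ask whether guide and passenger had the same ratio and whether the loci differed. For each read of the summed a-1 and a-2 passengers there were 165 (156 to 174) reads of miR-181a-5p in *Dnmt1*-WT and 139 (131 to 148) in *Dnmt1*-KO, a change of 0.847 (0.780 to 0.920). Both passengers summed gave a ratio of 0.833 (0.766 to 0.905). This value was 1.01 once totals were equal, a scale on which their guide remained below 1. The passengers differed by locus. miR-181a-1-3p was present at 0.886 (0.791 to 0.992) times miR-181a-2-3p in *Dnmt1*-WT and at 1.32 (1.17 to 1.497) times in *Dnmt1*-KO. This change of 1.49 (1.26 to 1.76) exceeded counting error, and the chromosome 1 hairpin gave 47.0% (44.2 to 49.8%) of the miR-181a passengers in *Dnmt1*-WT and 56.9% (53.9 to 59.9%) in *Dnmt1*-KO. The guide of the a-1 and a-2 hairpins is one sequence and could not be divided between them.

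One property of the values touches this comparison. Divided by the step of the library, the *Dnmt1*-WT values gave 580.54 reads for miR-181a-1-3p and 655.53 for miR-181a-2-3p, near the middle between whole numbers. The *Dnmt1*-KO values gave 588.93 and 445.94, close to whole numbers, as did miR-181c-3p with 309.02 and 364.01. How reads that match several entries were divided is not given in the sources used here, and its part in the difference between the a-1 and a-2 passengers was not tested.

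For miR-181c, no change between guide and passenger beyond counting error was detectable. There were 75.9 (67.8 to 85.2) reads of the guide per passenger read in *Dnmt1*-WT and 70.2 (63.3 to 78.1) in *Dnmt1*-KO, a change of 0.925 (0.794 to 1.08) whose interval includes 1. Over the listed products, the passenger share was largest here, at 1.30% of miR-181c reads in *Dnmt1*-WT and 1.40% in *Dnmt1*-KO. For miR-181a it was 0.604% and 0.712%. The higher of the values in the libraries was 0.108% for miR-181b and 0.0811% for miR-181d. The miR-181b share and ratio leave out miR-181b-2-3p, which has no entry, although the guide joins both miR-181b loci. The guide to passenger ratios of miR-181b and miR-181d rested on few reads. Their changes of 0.624 (0.313 to 1.24) and 4.74 (0.594 to 37.8) were not distinguishable from 1.

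These differences between arms can be placed among those hairpins for which the RefSeq sequence table used here holds both arms. It covers 918 of the 1080 mature entries, so the counts, medians and ranks given for arms, neighbours and seed families are over that subset and not over the whole deposited table. Of 64 such pairs of arms that both reached a mean of 100, the absolute difference in log2 ratio had a median of 0.44, from 0.02 for the arms of Mir129-2 to 1.69 for those of miR-125a. The difference was 0.52 between miR-181a-5p and miR-181a-1-3p, at rank 29 of 64 from the widest. It was 0.11 for miR-181c, at rank 54, and 0.06 between miR-181a-5p and miR-181a-2-3p, at rank 60. On this measure the guide of miR-181a lay closer to the passenger of the chromosome 2 hairpin than to that of the chromosome 1 hairpin.

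The a/b clusters were then compared with the c/d cluster. Summed over guides, a and b stood at 232097 in *Dnmt1*-WT and 156731 in *Dnmt1*-KO, a ratio of 0.675 (0.671 to 0.680). The c and d guides stood at 33390 and 31336, a ratio of 0.938 (0.924 to 0.953). Equal totals turned it to 1.13. Within each library, a and b exceeded c and d by 6.95 times (6.87 to 7.03) in *Dnmt1*-WT and by 5.002 times (4.94 to 5.06) in *Dnmt1*-KO, a change of 0.720 (0.708 to 0.732). The balance was thus further towards the c/d sum in *Dnmt1*-KO, through miR-181c-5p, with a ratio of 1.08. miR-181d-5p went the other way, as its ratio of 0.592 lay below that of the a and b sum. The change in each matched pair was 0.651 (0.638 to 0.663) for miR-181a-5p against miR-181c-5p and 0.773 (0.744 to 0.803) for miR-181b-5p against miR-181d-5p.

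Ratios also differed between a and b and between c and d. There were 7.25 (7.16 to 7.34) reads of miR-181a-5p per read of miR-181b-5p in *Dnmt1*-WT and 11.2 (11.0 to 11.4) in *Dnmt1*-KO, a change of 1.54 (1.51 to 1.58). Both guides sum their chromosome 1 and chromosome 2 hairpins, so this change could not be placed within a cluster. For the c/d cluster, there were 2.38 (2.32 to 2.44) reads of miR-181c-5p per read of miR-181d-5p in *Dnmt1*-WT and 4.36 (4.23 to 4.48) in *Dnmt1*-KO, a change of 1.83 (1.76 to 1.90). Among the entries in the sequence table, hairpins less than 10 kb apart on 1 strand, taken by their more abundant listed product with a mean of at least 1000, gave 26 pairs for comparison, which share members and are not independent. A product made at several loci enters with its summed value. Their absolute difference in log2 ratio had a median of 0.51. It ranged from 0.03 for miR-194-5p and miR-215-5p to 1.24 for miR-199a-5p and miR-214-3p. The pair of miR-181c-5p and miR-181d-5p, 0.87 apart, ranked 4, between miR-192-5p with miR-194-5p at 0.90 and miR-25-3p with miR-93-5p at 0.81. The pair of miR-181a-5p and miR-181b-5p, 0.62 apart, ranked 9, but each of these values joins 2 loci and the pair is not a difference between neighbours at 1 of them.

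The spread inside the family was set beside that of other families that share a seed. There were 7 seed families with at least 3 members at a mean of at least 1000 among the 918 mature entries with a RefSeq sequence. The log2 ratios of the miR-181 guides covered a range of 1.24, the third widest in this subset. The miR-148a-3p family was widest at 1.46, followed by the family of miR-16-5p at 1.40. The let-7c-5p family came next at 1.17, and the miR-125a-5p family was narrowest at 0.78. These ranks describe 2 libraries and are not a test.

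**Figure D5:**
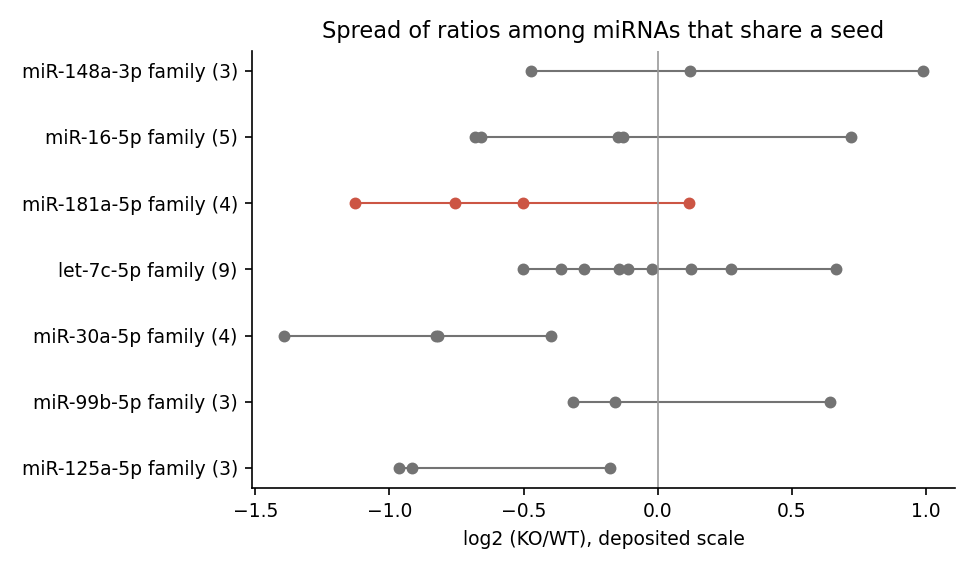
log2 KO/WT ratio on the deposited scale for the members of each of the 7 seed families, named by the most abundant member that has a sequence in the table used, with the number of such members in parentheses. Each point is 1 such mature miRNA with a mean of at least 1000, and lines join the lowest and highest. The miR-181 guides, in red, cover a range of 1.24, from miR-181b-5p at -1.13 to miR-181c-5p at 0.12.

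Markers of several cell types differed between the libraries alongside the family. From bulk values alone, fewer cells of a type and less RNA per cell cannot be told apart. By flow cytometry of this tissue at the same age, the authors counted more immune cells and fewer eGFP-positive smooth muscle cells in *Dnmt1*-KO. Of the smooth muscle miRNAs (miR-143, miR-145a, miR-133a, miR-133b and miR-1a), 8 of 8 products with a mean of at least 10 were lower in *Dnmt1*-KO, and the summed list had a ratio of 0.652. miR-143-3p led it, with a ratio of 0.694, and was the most abundant entry in both libraries. miR-145b, which is not on this list and has a mean of 40.5, went the other way, with a log2 ratio of 0.72. The leukocyte list (miR-142a, miR-223, miR-150, miR-155 and miR-342) was higher in *Dnmt1*-KO for 7 of 8 products. Its sum went from 6085 to 10150, a ratio of 1.67, and its most abundant member, miR-342-3p, had a ratio of 1.20.

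Lists of other cell types were also summed. The red cell list (miR-451a, miR-144 and miR-486a) went from 12745 to 47217, nearly all of it miR-486a-5p with a ratio of 3.71. Its sum is thus in effect the value of 1 entry, and the authors place miR-486a among miRNAs tied to cell identity and proliferation. Of the rest, miR-451a stood at 141.4 in *Dnmt1*-WT and 420.8 in *Dnmt1*-KO, and the miR-144 products at 20.9 or less in either library. The endothelial miR-126a products had a summed ratio of 1.42. The epithelial list had 9 of 13 products higher, with a summed ratio of 1.25 and miR-215-5p, its leading member, at 0.977, while miR-192-5p stood at 4619 in *Dnmt1*-WT and 8272 in *Dnmt1*-KO. The neural list had 4 of 9 higher, with a summed ratio of 0.914 and miR-129-5p, its leading member, at 1.28, while miR-138-5p stood at 2638 in *Dnmt1*-WT and 1195 in *Dnmt1*-KO. With equal totals the neural sum turned to 1.10 with 6 of 9 higher, and 13 of 13 epithelial products were higher. No product of these lists was at 0 in both libraries. The part of any of these cell types in the miR-181 values was not tested.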

How the data were processed

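The authors isolated RNA with a mirVana kit and sent it to a commercial provider for miRNA sequencing, with 1 library per genotype. The labels name the Illumina TruSeq Small RNA preparation, and the reference genome was GRCm38/mm10. The submitters' processing notes name Bowtie, while its settings, the miRNA database release, the treatment of multi-mapping reads and the scaling are not given in the sources used here. The deposited values are reads times a factor per library, as worked out from the values: between 20 and 300, a step of 1.00285 gave whole numbers within 0.05 for 86.9% of 229 values in *Dnmt1*-WT, and a step of 0.99723 for 89.1% of 248 values in *Dnmt1*-KO. Dividing by these steps gave 5725560 and 4767884 implied reads. A column with the authors' fold change was not used.

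Intervals of ratios are exact (Clopper-Pearson) binomial intervals of the implied reads, shares carry Wilson intervals, and a change of a ratio has an interval from the log odds of 4 read counts (Python 3.11.15, SciPy 1.17.1). A value of 0 allows up to 3 reads. The steps and intervals were tested on simulated data, drawn as independent Poisson reads that were all multiplied by the step of their library. That test therefore does not cover amplified copies or the deposited values that are not whole multiples of the step. With 1 library per genotype no p-value was computed, and a call is a ratio of at least 2 or at most 0.5. Alternatives were 3 other scalings, pseudocounts of 1 and 10, minimum means of 10, 100 and 1000, and other groupings of the products. Leading members of marker lists are those with the highest mean of both libraries. Values are given for all miR-181 products, and for other miRNAs as the extremes or rank neighbours of a comparison, as the leading member of a marker list, or as nearest to miR-181a-5p in abundance. miR-138-5p, miR-192-5p, miR-451a, miR-144 and miR-145b were added after their values were seen. Members, marker lists and rules were chosen with earlier results of these data known.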

Additional observations from a re-analysis of the deposited data

How the results depend on the processing

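Scaling between libraries moved ratios but no product changed side on the other scales. Equal totals gave 0.852 for miR-181a-5p, 0.553 for miR-181b-5p, 1.31 for miR-181c-5p and 0.715 for miR-181d-5p. Leaving miR-143-3p out of the totals turned these to 0.794, 0.515, 1.22 and 0.667. A median of 1 over entries with a mean of at least 100 gave 0.719 for miR-181a-5p and 1.11 for miR-181c-5p. Under these 3 scalings, in that order, the summed guides stood at 0.855, 0.798 and 0.723 and the a and b guides at 0.815, 0.760 and 0.689. The c and d guides reversed, from 0.938 to 1.13 and 1.06, and stood at 0.957 with the centred median. The summed miR-181a passengers reversed to 1.01 with equal totals and stood at 0.937 without miR-143-3p, an alternative added after seeing the data. Of the marker lists, rescaled after seeing the data, the neural sum reversed from 0.914 to 1.10 with equal totals and 1.03 without miR-143-3p. The smooth muscle sum stayed below 1, at most 0.788, and the leukocyte, epithelial, endothelial and red cell sums stayed above 1. By construction, scaling leaves shares and ratios within a library as they are.

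Without miR-143-3p in the total, the family of 9 products held 6.74% in place of 4.65% of *Dnmt1*-WT and 5.38% in place of 3.99% of *Dnmt1*-KO. With 3p products added, miR-181a-5p held 76.4% and 75.9% of the family. Without miR-181a-5p, the shares in *Dnmt1*-WT and *Dnmt1*-KO were 45.7% and 29.1% for miR-181b-5p, 38.2% and 57.6% for miR-181c-5p, and 16.1% and 13.2% for miR-181d-5p. The change in a/b against c/d was 0.773 from b and d alone and 0.651 from a and c alone. The 61 mature entries at least 2-fold higher and 48 lower became 282 and 238 with no minimum mean, 20 and 26 at 100, 6 and 10 at 1000, and 105 and 23 with equal totals. The miR-181 range ranked 4 of 11 and 5 of 14 seed families with a listed sequence at minimum means of 100 and 10. The median difference between arms was 0.54 at a minimum mean of 10 and 0.24 at 1000, and that between neighbouring hairpins 0.53 within 50 kb and 0.42 at a minimum mean of 100. Pseudocounts moved no ratio of a guide beyond its interval. For miR-181d-3p, pseudocounts of 1 and 10 moved the ratio from 0.125 to 0.222 and 0.611, and the second of these ended its 2-fold call. The change in the miR-181d guide to passenger ratio went from 4.74 to 2.67 with a pseudocount of 1.

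No paired analysis was possible because each genotype has 1 library. Depth limits the miR-181b and miR-181d passengers, at deposited values of 19.1 or less.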

Other observations

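The guides were also grouped by sequence and not by locus. This grouping was chosen after the values were seen and sets the 2 highest ratios against the 2 lowest, so its size is a description fixed by that choice. miR-181a-5p and miR-181c-5p, which differ by 1 base, together stood at 227472 in *Dnmt1*-WT and 169339 in *Dnmt1*-KO, a ratio of 0.744 (0.740 to 0.749). miR-181b-5p and miR-181d-5p together stood at 38015 and 18727, a ratio of 0.493 (0.484 to 0.501). The a and c guides exceeded the b and d guides by 5.98 times (5.92 to 6.05) in *Dnmt1*-WT and by 9.04 times (8.91 to 9.18) in *Dnmt1*-KO, a change of 1.51 (1.48 to 1.54) that does not depend on the scaling between libraries. The a and c sum is mostly miR-181a-5p, and inside that group miR-181a-5p against miR-181c-5p changed by 0.651 (0.638 to 0.663).

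Between the 3p products with the same seed, no change beyond counting error was detectable. miR-181a-1-3p and miR-181c-3p, from chromosomes 1 and 8, stood at 1.88 (1.64 to 2.17) to 1 in *Dnmt1*-WT and 1.62 (1.42 to 1.85) to 1 in *Dnmt1*-KO, a change of 0.861 (0.712 to 1.04) whose interval includes 1. Summed over all 9 products, guides outnumbered passengers 168 (160 to 177) to 1 in *Dnmt1*-WT and 133.4 (127 to 140.6) to 1 in *Dnmt1*-KO, a change of 0.792 (0.737 to 0.851). This pooled ratio also moves with the make-up, as miR-181c has the largest passenger share and held more of the guides in *Dnmt1*-KO. Taken singly, miR-181a changed by 0.847 (0.780 to 0.920), and the intervals for miR-181b, miR-181c and miR-181d include 1. miR-181b-2-3p, which has no entry, is left out.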
